A study of Mus musculus with 6 samples.

Results

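Hoxb2 to Hoxb9 are homeobox genes of the Hoxb cluster, and Meis1 and Pbx3 encode DNA-binding partners of HOX proteins. These 10 genes, of 54532 genes in the count table, were examined in AE9a leukemia cells from the central and the endosteal bone marrow. They were selected on their gene names and on their raw counts in these same 6 libraries, several of which were known to lie near the floor, so their levels and differences are given as descriptions.

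The cells came from C57BL/6 mice with leukemia driven by AE9a (AML1-ETO9a), a splice form of the AML1-ETO fusion that joins the DNA-binding domain of AML1 (RUNX1) to ETO. AE9a was delivered by retrovirus into c-Kit+ hematopoietic stem and progenitor cells, and the mice used were the third generation of transplanted recipients, so both groups carry the same oncogene and neither is a normal marrow control. Central bone marrow (CBM, 3 libraries) was flushed from femurs and tibias, and endosteal bone marrow (EBM, 3 libraries) was then released from femurs and tibias with collagenase I at 37 °C, so the enzyme step and the region cannot be told apart. Separate mice are not stated for the libraries of a group, and p-values then measure only the spread between these libraries, which may be technical. The ages of the mice at collection were not given in the sources used here.

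HOX proteins bind DNA through a homeodomain and gain specificity by pairing with the TALE homeodomain proteins of the PBX and MEIS families. In blood formation, Hoxb and Hoxa genes are active in stem and early progenitor cells and are switched off as cells mature, and forced Hoxb4 expression is known to expand stem cells. Meis1 with Hoxa9 is a well-known driver pair in myeloid leukemia, with Pbx3 as a further partner.

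The libraries held 16436526 to 19462964 counts each. The largest principal component, which held 53.0% of the variance, placed CBM replicate 1, EBM replicate 1 and EBM replicate 2 on the opposite side from CBM replicate 2 and EBM replicate 3, with CBM replicate 3 between them, and so did not follow the region. No 2 libraries of a group agreed within sampling noise (chi-square per degree of freedom 13.1 to 76.9). The summed level of 6 neutrophil markers ranged from 3.32 to 223 CPM (counts scaled to library totals adjusted by TMM) in CBM and from 34.3 to 160 CPM in EBM, with the lowest and the highest value both in CBM. Of 10 osteoblast markers, Runx2, which blood cells also express, held 8.60 CPM on average beside 0.148 CPM for Col1a1, and Sp7, Alpl, Bglap2 and Dmp1 were at 0 in every library. Spp1, which encodes osteopontin, had 1, 3 and 0 counts in CBM and 8, 9 and 3 in EBM, with a log2 difference of 2.32 without a filter (SE 0.94, adjusted p = 0.819, edgeR), whereas that of Runx2 was -0.23 (SE 0.23, adjusted p = 0.903). Erythroid markers, led by Hba-a1 and Hbb-bs, summed to 2133 to 5454 CPM in CBM and to 2517 to 3910 CPM in EBM. The stromal, endothelial, macrophage, and T and NK cell lists each stayed at or under 3.36 CPM in any library, and the B cell list, led by Cd79b, at 6.80 to 14.5 CPM. The part of these markers in the members' values was not tested. In bulk libraries, fewer cells of a type and less RNA per cell cannot be told apart.

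Of the 10 genes, 8 are close relatives that share the homeobox, so it was asked how far their transcripts can be told apart. Over the whole GENCODE M21 transcripts, stretches of 75 bases that occur in no other annotated gene made up 100% of Hoxb4, Hoxb6, Hoxb7, Hoxb8, Hoxb9 and Pbx3, 99.1% of Hoxb5, 83.9% of Meis1, 74.8% of Hoxb2 and 49.5% of Hoxb3. So each member had stretches of this length of its own.

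Promoter sequence is shown for Hoxb4 and Hoxb8, which had no count, and for Meis1, which had few. These 3 of the 10 members had an entry among the RefSeq promoter windows for GRCm38.p6, and the bases upstream of the annotated exons are printed, at chr11:96318017-96318266 on the plus strand for Hoxb4, chr11:96281655-96281904 on the plus strand for Hoxb8 and chr11:19018986-19019219 on the minus strand for Meis1. Capitals mark matches, on either strand, to the RUNX core TGTGGT, to the HOX-PBX motif TGATNNAT or to the MEIS motif TGACAG.
Hoxb4: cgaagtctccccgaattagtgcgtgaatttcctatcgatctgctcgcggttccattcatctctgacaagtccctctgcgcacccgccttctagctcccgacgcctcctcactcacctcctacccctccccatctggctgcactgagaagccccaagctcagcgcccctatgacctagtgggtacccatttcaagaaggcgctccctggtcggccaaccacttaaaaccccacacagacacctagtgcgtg
Hoxb8: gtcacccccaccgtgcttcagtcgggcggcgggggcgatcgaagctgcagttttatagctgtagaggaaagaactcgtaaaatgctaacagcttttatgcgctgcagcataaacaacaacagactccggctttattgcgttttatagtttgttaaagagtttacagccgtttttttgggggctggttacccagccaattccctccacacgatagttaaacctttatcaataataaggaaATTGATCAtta
Meis1: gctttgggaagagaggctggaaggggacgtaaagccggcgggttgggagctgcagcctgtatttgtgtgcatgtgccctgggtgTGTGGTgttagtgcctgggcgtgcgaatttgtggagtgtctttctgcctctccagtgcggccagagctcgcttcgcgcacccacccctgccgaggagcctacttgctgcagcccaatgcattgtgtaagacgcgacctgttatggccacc
The Hoxb4 stretch held none of the 3 motifs, the Hoxb8 stretch held 1 HOX-PBX match and the Meis1 stretch held 1 RUNX core match. Among 32851 promoter windows of 250 bases, the RUNX core was found in 14.0%, the HOX-PBX motif in 7.68% and the MEIS motif in 15.9%. CpG pairs numbered 14 in Hoxb4, 12 in Hoxb8 and 12 in the 234 bases of Meis1 (13 in its full window). Over all windows the median was 6 and the upper quartile 16. A match is a description of letters and says nothing of binding in these cells.

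No Hoxb member had more than 1 count over the 6 libraries. Hoxb3 (ENSMUSG00000048763), Hoxb4 (ENSMUSG00000038692), Hoxb5 (ENSMUSG00000038700), Hoxb6 (ENSMUSG00000000690), Hoxb7 (ENSMUSG00000038721), Hoxb8 (ENSMUSG00000056648) and Hoxb9 (ENSMUSG00000020875) had 0 counts in all 6 libraries. Hoxb2 (ENSMUSG00000075588), which patterns the hindbrain and is the anterior-most of the members, had 0, 0 and 1 counts in CBM and 0, 0 and 0 in EBM. Thus 47 of the 48 values of Hoxb members were 0, and the groups overlapped at 0 for all 8 genes.

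A count of 0 still allows some expression. Taking 3 counts as the most that a count of 0 allows, the limit per library was 0.154 to 0.183 CPM, here over the plain library total. Scaled to gene length, the limit lay between 0.0363 RPKM (counts scaled to the plain library total, with no TMM factor, and divided by the gene length in kilobases) for Hoxb3, the longest at 4251 bases, and 0.118 RPKM for Hoxb7, the shortest at 1544 bases. Over the 108345620 counts of all 6 libraries together, the limit fell to 0.0277 CPM, or 0.00651 to 0.0179 RPKM by gene. These limits cover counting error only, since PCR reads are not independent molecules. Those per length use the full deposited length, though 49.5% of the 75-base stretches of Hoxb3 and 74.8% of those of Hoxb2 occur in no other gene. Hoxb2, Hoxb3, Hoxb5 and Hoxb6 also overlap antisense genes, and the use of strand is not given. Shared reads may have gone uncounted, so the limits of these genes could be higher. No fold between EBM and CBM is given for any Hoxb member, because both groups were at or under the limit.

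**Figure D1:**
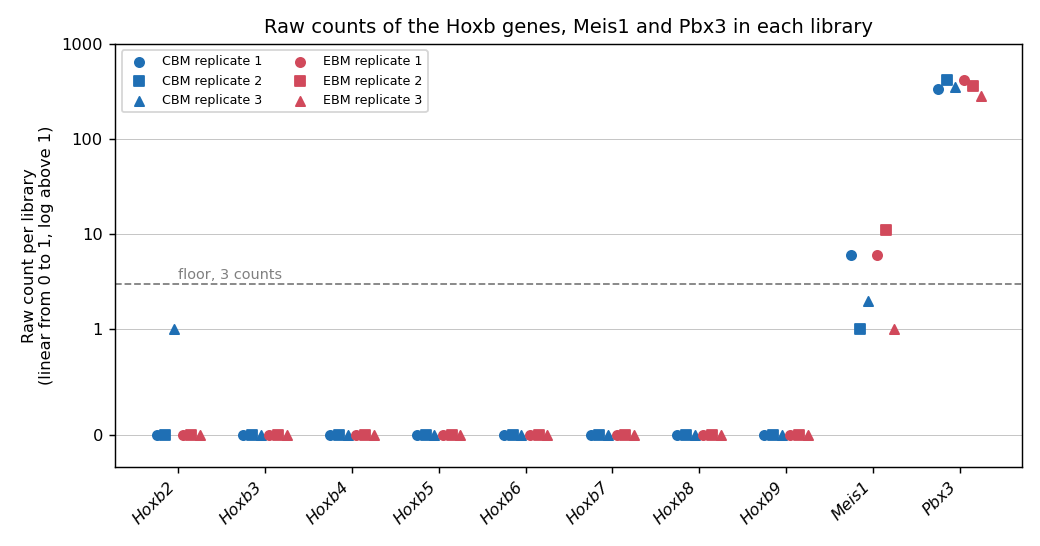
Raw counts of the 10 members in each of the 6 libraries, with the y axis linear from 0 to 1 and logarithmic above, CBM in blue and EBM in red. Pbx3 stands between 285 and 423 counts, Meis1 lies between 1 and 11, all Hoxb points but 1 lie at 0, and the dashed line marks 3 counts.

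The absence of counts ran through the cluster from Hoxb9 to Hoxb1. From the start of Hoxb9 to the end of Hoxb1 (chr11:96271457-96368256, GRCm38, 96.8 kb), 13 genes are annotated, and their summed count over the 6 libraries was 1. The 5 that are not members are Hoxb1, the microRNA gene Mir10a and the antisense genes Hoxb5os, Gm11536 and Hoxb3os, and all had 0 counts. These were not small RNA libraries, so a 0 for a microRNA gene, here Mir10a of 110 bases, says little of its microRNA. The antisense genes overlap members, and their counts depend on the use of strand, which is not given.

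Hoxb13, the posterior end of the cluster, was the exception. It lies 74.0 kb from Hoxb9 and had 192, 194 and 266 counts in CBM and 193, 166 and 200 in EBM. These groups overlapped, and the log2 difference, EBM minus CBM, was -0.07 (SE 0.19, adjusted p = 0.983, edgeR quasi-likelihood test). Per length, the Hoxb13 level was 64.6 to 103 times the limit of Hoxb9 across the libraries.

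Of the genes between Hoxb13 and Hoxb9, 3 had at least 10 counts in 3 libraries. Gm27605, a short RNA gene on the minus strand next to Hoxb13, had 265, 334 and 349 counts in CBM and 348, 245 and 344 in EBM. Its neighbor Gm27898 had 20, 33 and 39 counts in CBM and 14, 30 and 33 in EBM. The pseudogene Gm11539 had 11, 11 and 12 counts in CBM and 21, 7 and 9 in EBM, while Gm53 had 5 counts in all and Mir196a-1 had 0. In the 250 kb before Hoxb13, 3 of 7 protein-coding genes had at least 100 counts, namely Snf8 (4902), Ube2z (13016) and Atp5g1 (8128), and in the 250 kb after Hoxb1 the only coding gene, Skap1, had 470. These flanking genes were named after their values were seen.

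**Figure D2:**
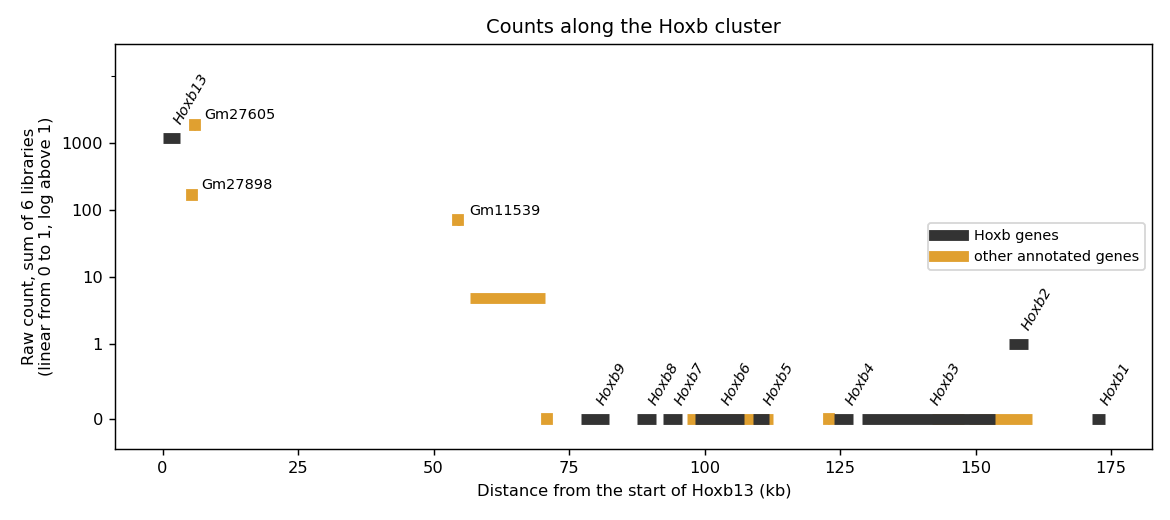
Summed raw counts over 6 libraries against distance from the start of Hoxb13 in kb, with the y axis linear from 0 to 1 and logarithmic above. Bars span each gene, squares stand for genes under 1 kb, and other annotated genes are in orange. Hoxb13 and its neighbors are counted, and from Hoxb9 to Hoxb1 the sum is 1.

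A 0 count was not rare among homeobox genes. Of 40 Hox rows in the table, Hoxd4 having a pair of them, 28 (70.0%) had 0 counts over all 6 libraries. These rows include the 8 Hoxb members, all at 0 but Hoxb2. Of the 232 genes annotated as homeobox factors in the deposited table, 67.2% were at 0, beside 30.2% of 22046 protein-coding genes. The Hoxc cluster held 13095 counts with 4 of 9 genes at 0, the Hoxb cluster 1212 counts with 8 of 10 at 0, the Hoxa cluster 10 counts with 7 of 11 at 0, and the Hoxd cluster 1 count with 9 of 10 at 0.

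The Hoxc cluster holds paralogs, genes of the same number in another cluster, of members that had no count. Their paralogs in the Hoxa and Hoxd clusters had at most 5 counts each over the 6 libraries. Hoxc4, a paralog of Hoxb4, had 964, 2139 and 1636 counts in CBM and 944, 1089 and 1637 in EBM. Its level per length was at least 314-fold above the Hoxb4 limit in each library and up to 712-fold. Hoxc5 had 231, 912 and 753 counts in CBM and 282, 432 and 1087 in EBM, 69.4 to 327 times the limit of Hoxb5. Its annotated interval, however, overlaps those of Hoxc6, Hoxc8, Hoxc9 and Hoxc10. Reads could be split or shared among them, so the values of all these genes are uncertain.

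The other Hoxc genes lay lower. Hoxc9 had 150, 122 and 135 counts in CBM and 134, 128 and 92 in EBM, 32.5 to 53.0 times the limit of Hoxb9. Hoxc6 was 5.98 to 12.2 times the limit of Hoxb6, and Hoxc8 only 1.24 to 3.10 times that of Hoxb8. In the Hoxa cluster, the cluster best known in leukemia, Hoxa9 had 2, 1 and 2 counts in CBM and 0, 0 and 0 in EBM, Hoxa5 had 2 in 1 CBM library, Hoxa10 had 1 in each of 2 CBM libraries, and Hoxa6 had 1 in EBM replicate 2, all under 3 per library, so no fold is given. Of the Hoxc genes, 4 could be tested, with log2 differences from -0.19 (Hoxc4) to 0.47 (Hoxc6), and 0 were called by edgeR, by DESeq2 or at an unadjusted p under 0.05.

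**Figure D3:**
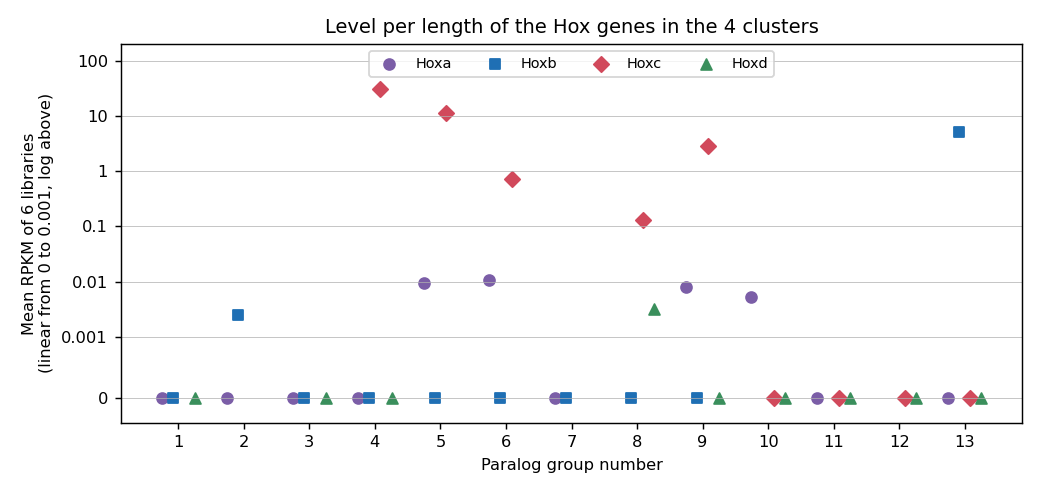
Mean RPKM of the 6 libraries (logarithmic above 0.001, linear below) against paralog group number, with a color and marker shape for each cluster. Hoxc4, Hoxc5 and Hoxb13 stand at 30.2, 11.1 and 5.06 RPKM, whereas 7 of the 8 Hoxb members sit at 0 and Hoxb2 just above it.

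Pbx3 (ENSMUSG00000038718, chr2:34171457-34373142 on the minus strand) was the only member with a clear level. It encodes a PBX protein that binds DNA with HOX proteins and also with MEIS proteins. The CBM libraries held 339, 414 and 354 counts and the EBM libraries 423, 365 and 285. The groups overlapped, with EBM replicate 1 the highest of all 6, EBM replicate 3 the lowest in raw counts and in RPKM, and CBM replicate 3 the lowest in TMM-scaled CPM.

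The Pbx3 difference between the regions was smaller than its spread. Its level was 19.5 ± 2.12 CPM (SD, n = 3) in the flushed cells and 20.6 ± 2.53 CPM (SD, n = 3) in the collagenase-released cells. The log2 difference was 0.08 (SE 0.15, 95% interval -0.27 to 0.43, edgeR's adjusted p = 0.976 over 13352 genes). Per length, Pbx3 stood at 3.29 ± 0.351 RPKM (SD, n = 6), higher than 64.2% of 22046 protein-coding genes.

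Only Pbx3 of the 10 members passed the filter on low counts, and 0 members were called. In the same fit 0 of 13352 genes (0%) were called at an adjusted p under 0.05, and 7.91% had an unadjusted p under 0.05, among which there was no member. DESeq2 called 1.39% of genes and edgeR without a filter 0.161%, again with 0 members. CPM values of the 2 groups did not overlap for 15.1% of the genes tested, and Pbx3 was not among them. Since the members were chosen from these counts, nothing is read from their share.

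Meis1 (ENSMUSG00000020160, chr11:18879817-19018985 on the minus strand) had few counts in every library. It encodes the TALE cofactor that sustains HOX-driven leukemia in other models. The CBM libraries held 6, 1 and 2 counts and the EBM libraries 6, 11 and 1. CBM replicate 1, EBM replicate 1 and EBM replicate 2 had 6, 6 and 11 of the 27 counts, and the other 3 libraries had 1 or 2 each, so the groups overlapped.

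The summed counts of Meis1 were 9 in CBM and 18 in EBM. The ratio of EBM to CBM was 2.09, with an exact interval of 0.893 to 5.29 that covers counting error only. Meis1 fell under the filter, and a fit without a filter gave a log2 difference of 1.05 (SE 0.91, adjusted p = 0.819, edgeR). Per length, Meis1 stood at 0.0238 ± 0.0208 RPKM (SD, n = 6). Per library its range of 0.00504 to 0.0577 RPKM overlapped the limits of the Hoxb members, so no order between Meis1 and those genes can be read at the depth of 1 library, and the highest Meis1 library was far under the lowest Pbx3 library in RPKM, EBM replicate 3 at 2.84.

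Meis1 had 1 count each in CBM replicate 2 and EBM replicate 3, beside 2 counts in CBM replicate 3, all under the floor of 3 counts. These libraries are therefore not ranked for Meis1. Some genes named after their values were seen were lowest in CBM replicate 2 and EBM replicate 3, which is given as a description. Meis2, a close relative of Meis1, had 692, 248 and 567 counts in CBM and 741, 593 and 240 in EBM. Cd34 had 270, 22 and 98 counts in CBM and 297, 188 and 19 in EBM, and Slamf1 had 347, 20 and 89 in CBM and 246, 229 and 13 in EBM. CBM replicate 2 and EBM replicate 3 were the lowest in each of these, and they also lay together on the largest principal component. Other listed genes went the other way. Hoxc4, with 2139 and 1637 counts in these libraries, and Hoxc5, with 912 and 1087, were the highest of their group there. The part of that component in the Meis1 counts was not tested.

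Among the other TALE genes shown, Pbx2 was the highest at 15.3 ± 1.24 RPKM (SD, n = 6). Pbx4 followed at 5.93 ± 0.677 RPKM and Pknox1 at 4.77 ± 0.433 RPKM, and these did not separate beyond their libraries' ranges. Pbx3 came next at 3.29 ± 0.351 RPKM, below every Pknox1 library. Meis2 at 2.36 ± 1.0 RPKM overlapped Pbx3. Meis3 stood at 1.05 ± 0.289 RPKM and overlapped Meis2, whereas its lowest library, at 0.731 RPKM, was above the highest Meis1 library. Pknox2 had 2 counts, both in CBM replicate 1.

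Of the 8 other PBX and MEIS genes, 7 were tested, 4 with positive and 3 with negative log2 differences, with a median of 0.00 beside 0.00 over all genes tested. None was called by edgeR, by DESeq2 or by limma-voom, and 1 had an unadjusted p under 0.05. That was Pbxip1, a protein that binds PBX and hinders its DNA binding, with 784, 858 and 851 counts in CBM and 565, 587 and 594 in EBM. Its groups did not overlap, at 43.9 ± 1.55 CPM in the flushed cells and 34.0 ± 3.68 CPM in the endosteal cells (SD, n = 3 each), with a log2 difference of -0.37 (SE 0.11, adjusted p = 0.466, edgeR), where 15.1% of all genes tested did not overlap either.

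**Figure D4:**
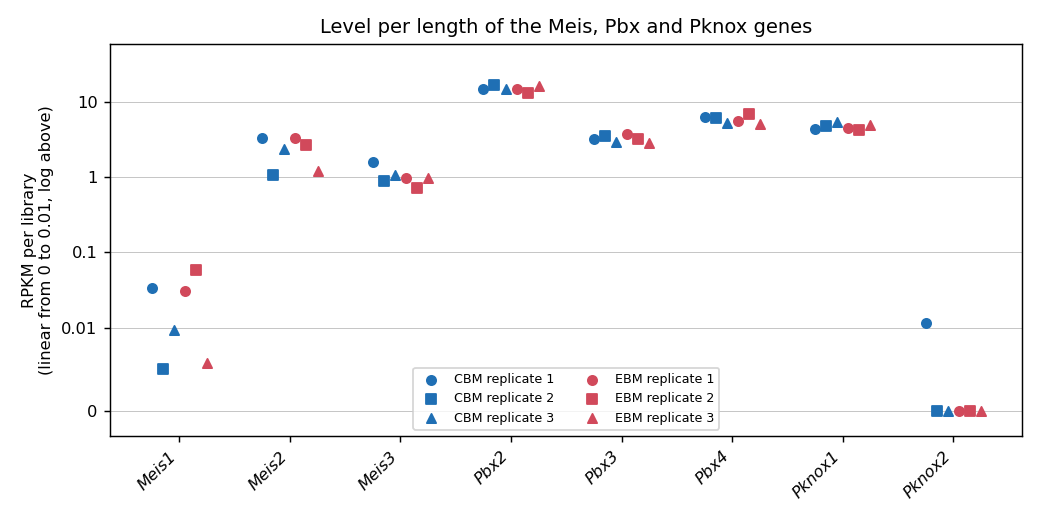
Level per length (RPKM, logarithmic above 0.01, linear below) of 8 Meis, Pbx and Pknox genes in each library, with the replicate number as the marker shape, CBM in blue and EBM in red. Pbx3 lies between 2.84 and 3.76 RPKM and Meis1 between 0.00504 and 0.0577 RPKM.

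Genes known as targets of HOX and MEIS1 in leukemia were also read, from a list of 14. Of these 10 were tested, 7 with positive and 3 with negative log2 differences and a median of 0.13, and 0 were called by edgeR, by DESeq2 or at an unadjusted p under 0.05. Flt3, a receptor and MEIS1 target, had 1, 4 and 2 counts in CBM and 1, 5 and 16 in EBM. Myb, a transcription factor of progenitors, had 5531, 6117 and 6200 counts in CBM and 4851, 5123 and 5472 in EBM. Scaled by TMM, its groups overlapped, at 307 to 322 CPM in CBM and 267 to 351 CPM in EBM. Its log2 difference was -0.06 (SE 0.12, adjusted p = 0.976, edgeR). Lmo2, an adaptor of blood transcription complexes, had 4298 to 8390 counts per library and Cdk6, a cell cycle kinase, 2806 to 6469. Mef2c, Sox4 and Trib2, of the same list, had 21, 16 and 7 counts over the 6 libraries and fell under the filter, as did Flt3. The list thus held both high and low genes beside Hoxb members with 1 count in all, and a link between them was not tested.

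The cells had the stem and progenitor genes Kit (3952, 3995 and 4513 counts in CBM, 4108, 4286 and 3046 in EBM) and Gata2 (13297 to 18279 counts), with Hlf at 202 to 548 counts. Of 10 such markers, 5 were tested, all with positive log2 differences and a median of 0.28, and 0 were called by edgeR, by DESeq2 or at an unadjusted p under 0.05. Mecom, Procr and Ly6a, which mark normal stem cells, had at most 5 counts in any library.

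The genes with the profile most like Pbx3 over the 6 libraries, among 13351 compared, were Gm10145 (Pearson r = 0.982), Gm11478 (0.980), Osbpl9 (0.979), 1700096K18Rik (0.967) and Rttn (0.965). With 6 points and 55 genes at r over 0.9, these correlations are a description, with nothing said of shared function.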

How the data were processed

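Bulk RNA-seq of 6 libraries (3 CBM, 3 EBM) was used. Per the paper's methods, rRNA-depleted RNA went into directional libraries read as paired ends, while the labels call the library type mRNA. The submitters' processing notes name HISAT2 2.0.5 and mm10. The counting tool, its annotation and its use of strand are not given in the sources used here, so genes overlapping on opposite strands are uncertain. The authors deposited raw counts per gene for 54532 genes, with a gene length, and no normalization. Coordinates matched GENCODE M21 (GRCm38) for 98.3% of the gene identifiers found there.

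Counts were scaled by TMM and tested with edgeR 4.0.16 (filterByExpr, quasi-likelihood F-test, Benjamini-Hochberg at 0.05, 13352 genes) in R 4.3.3, with no block. The study names an unpaired test in its general statistics and none for the RNA-seq. The standard error is the absolute log2 fold change divided by the square root of F. Alternatives were DESeq2 1.42.0, limma-voom 3.58.1, other scalings and filters, the replicate number as a block, and each library left out. The fits were tested on simulated data with 200 changed genes. Floors are 3 counts and the 95% interval of the Meis1 ratio is exact for counts, and both cover counting error only. The 95% interval of Pbx3 is the edgeR standard error times a t quantile, so it includes the spread between libraries. RPKM and floors used the plain library totals, and RPKM the deposited gene length, whereas CPM used TMM-adjusted totals. Members and lists were chosen with earlier results of these data known. Named genes were all members, the 3 highest genes by mean CPM in each other list, non-member genes between Hoxb13 and Hoxb1 with at least 10 counts in 3 libraries, and the 5 genes most like Pbx3. Others were named after their values were seen. Libraries of Ddit4-deficient cells were not analysed here, and a few genes and sequences are not reported here.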

Additional observations from a re-analysis of the deposited data

How the results depend on the processing

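No member was called in any of 13 alternatives, but few of them could be. Hoxb3 to Hoxb9, at 0 in every library, had no fit in any setting, and Hoxb2 had 1 count in all. Only Pbx3 passed the filter of the main fit, and Meis1 had no adjusted p from DESeq2. Over all genes, 0 were called by edgeR, and 40 without a filter on low counts and 175 with DESeq2, while leaving out each library in turn gave 0 to 0 genes. The cause of these differences was not tested. The log2 difference of Pbx3 was between -0.017 and 0.17 with each library left out, was -0.017 without EBM replicate 1, and kept its sign in the other 12 alternatives, with adjusted p between 0.796 and 1.0. That of Meis1 ran from 0.31 (without EBM replicate 2) to 2.06 (without CBM replicate 1) with each library left out, was 0.64 without CBM replicate 2, and had an adjusted p between 0.781 and 0.969.

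Deviations of the same-numbered CBM and EBM libraries correlated at 0.68, -0.20 and 0.20, so not every pair exceeded 0.1, and the numbers were not taken to pair the libraries. Whether same-numbered libraries came from the same mouse is not stated. With the replicate block, 0 genes and 0 members were called, the log2 difference of Pbx3 was 0.08 (adjusted p = 0.902, edgeR) and that of Meis1 was 0.96 (adjusted p = 0.920).

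The summed Hoxb level has no log2 difference, because both groups were at or under 3 counts, so its alternatives, thinning included, were not run. Depth limits the Hoxb members: per library, a count of 0 allows a level of up to 0.154 to 0.183 CPM, and the 27 Meis1 counts allow no firm difference.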
